A study of Mus musculus with 24 samples.

Results

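Colon of ApcMin mice given ATB-346 was compared with colon of wild-type mice given vehicle, on 8 of the series' 24 single-colour Illumina bead arrays. The 4 ATB-346 arrays are those labelled replicates 1 to 4 of ApcMin mice treated with ATB-346, and the 4 control arrays are the wild-type vehicle replicates 1 to 4. ATB-346 replicates 5 and 6 were left out, since no wild-type array carries a replicate number above 4. The labels name C57Bl/6 as the strain of both groups, and the ATB-346 mice were heterozygous for Min (APCMin/+), a point mutation in 1 copy of Apc. Both groups were dosed once a day by oral gavage for 7 days from 6 weeks of age, with ATB-346 at 14.5 mg/kg or with vehicle (0.05% DMSO and 0.95% carboxymethylcellulose). The colon was taken 7 weeks after dosing ended, when the mice were 14 weeks old. The groups differ in genotype and in treatment at once, and the effects of the 2 cannot be told apart in this comparison. The RNA came from whole colon, with no label for the part of the colon or for tumour content. Whether the arrays of a group stem from different animals is not in the labels. The p-values therefore measure only how far the samples in the fit spread, and some of that spread may be technical. The fit also held replicates 1 to 4 of vehicle-treated and of naproxen-treated ApcMin mice, 16 arrays in all. Each SE, interval and p-value thus carries the spread of those arrays too.

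Apc is a scaffold of the complex that marks beta-catenin for destruction. When its second copy is lost in an intestinal cell, beta-catenin builds up and switches on Wnt target genes, which starts the adenomas that ApcMin mice are known for. Naproxen is a non-steroidal anti-inflammatory drug that blocks cyclooxygenases, the enzymes that begin prostaglandin synthesis from arachidonic acid. ATB-346 is a naproxen derivative that also releases hydrogen sulfide, a gas that colon epithelium both makes and oxidises in its mitochondria.

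All levels are normalized signals on the log2 scale, and each difference is the ATB-346 mean minus the wild-type mean, with its SE or 95% interval from a limma fit. The raw median of the 8 arrays ranged from 81.4 to 99 intensity units and the correlation of any 2 arrays lay between 0.954 and 0.993. Precision is limited by the number of arrays. Over the tested genes the median interval reached 0.22 to either side of the difference, and for 96.2% of them the whole interval lay within 1 log2 unit of 0. Epithelial markers of the colon were present on every array: Cdx2, a gut transcription factor, read 10.01 to 12.52, Krt20, a keratin of differentiated epithelium, 12.64 to 13.50, and Vil1, the brush border protein villin, 11.25 to 11.90. Slc26a3, the chloride exchanger of surface colonocytes, read only 5.97 to 6.54, near the lowest normalized value of 5.65.

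The arrays of each group were not alike. Osr2, an odd-skipped transcription factor, read 6.61, 7.24, 6.85 and 13.01 in wild-type replicates 1 to 4, and 12.90, 9.57, 7.57 and 7.62 in ATB-346 replicates 1 to 4. Wild-type replicate 4 and ATB-346 replicate 1 were thus high, ATB-346 replicate 2 lay between, and the other 5 arrays were low. Hoxb5, from the Hox family that marks position along the body axis, was highest in the same 3 arrays, with 8.84, 8.74, 8.73 and 10.47 in wild type and 10.55, 9.68, 9.08 and 8.78 in ATB-346. Hoxa13, chosen after its values were seen, ran the other way: it was lowest in ATB-346 replicate 1 (6.47) and wild-type replicate 4 (6.52) and between 6.93 and 7.22 on the other 6. The first principal component of the 8 arrays held 55.1% of the variance and placed these 2 arrays at 27.20 and 22.87, with the other 6 between -19.64 and 11.58. Both groups hold such arrays, so the difference in Osr2 was 0.99 ± 1.63 (SE). The part of this contrast between arrays in the results was not tested as a cause, and several results below are given also without the 3 arrays with the highest Osr2, wild-type replicate 4 and ATB-346 replicates 1 and 2.

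**Figure D1:**
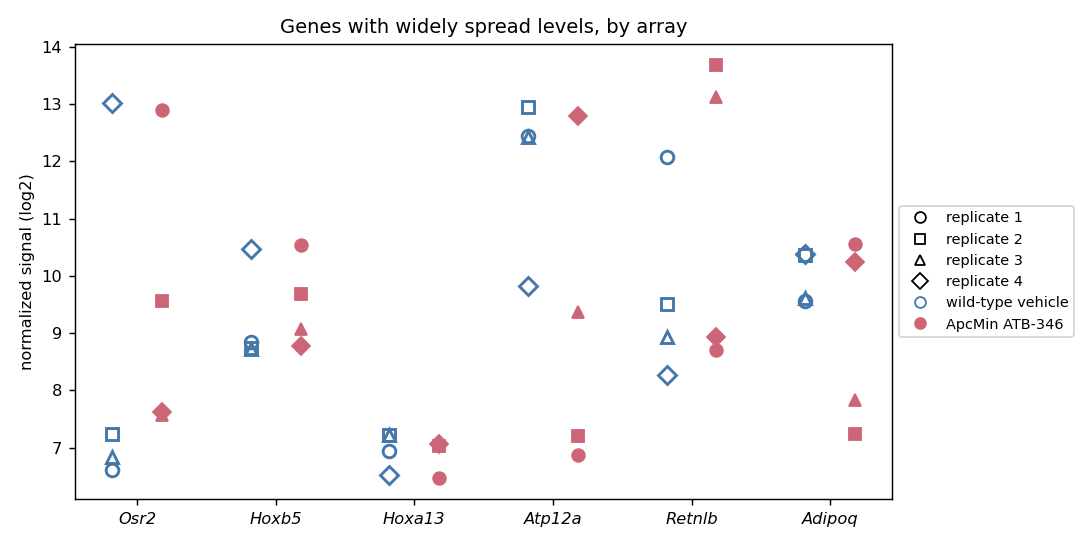
Normalized signal (log2) of 6 genes on each array, with open blue markers for wild-type vehicle and filled red markers for ApcMin ATB-346, and one marker shape per replicate number. Osr2 and Hoxb5 were high in wild-type replicate 4 and ATB-346 replicate 1, Atp12a was low in ATB-346 replicates 1 and 2, Retnlb was high in ATB-346 replicates 2 and 3, and Adipoq was low in the same 2 arrays.

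No gene was called between ATB-346-treated ApcMin colon and wild-type colon. At a limma adjusted p under 0.05, 0 of 9048 tested targets (0%) were higher and 0 (0%) lower, and the smallest adjusted p was 0.130, that of Ndufb5. At an unadjusted p under 0.05, 289 targets (3.19%) were higher and 196 (2.17%) lower. These 485 targets (5.36%) stand beside 452.4 that this threshold gives by chance. With only the 8 arrays of the 2 groups in the fit, 202 targets were higher and 153 lower at that threshold. The smallest adjusted p was then 0.998 by limma. The 4 arrays of each group did not overlap for 152 targets that were higher (1.68%) and 91 that were lower (1.01%), 2.69% together. Over all tested targets the median difference was 0.00 with 51.3% of the differences above 0 and 48.7% below. Differences above 1 log2 unit were found for 18 targets, 4 higher and 14 lower, and for 17 of the 18 the arrays of the groups overlapped.

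The genes with the smallest p-values showed small and even differences. The 12 leading genes on the higher side differed by 0.25 to 0.43 and the 12 on the lower side by -0.41 to -0.23, none called, with adjusted p-values from limma between 0.130 and 0.728. In all 24 the arrays of the 2 groups did not overlap, a property that the choice by p-value favours. Ndufb5, an accessory subunit of mitochondrial complex I, read 9.39, 9.39, 9.50 and 9.60 in wild type and 9.94, 9.89, 9.81 and 9.95 in ATB-346, a difference of 0.43 ± 0.07 (SE). Every ATB-346 array stood above every wild-type array. Sparcl1, which encodes a secreted matrix-associated protein, read 7.51, 7.37, 7.40 and 7.61 against 8.07, 7.83, 7.77 and 7.95 (0.43 ± 0.08, adjusted p = 0.569 by limma). Ddx19a, an RNA helicase of mRNA export, read 7.07 to 7.10 in wild type and 7.21 to 7.50 in ATB-346, and Pik3r4, a subunit of the lipid kinase complex that drives autophagy, read 6.59 to 6.67 against 6.91 to 6.99. These 2 genes had tight wild-type groups, with SDs of 0.01 and 0.04.

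The other 8 on the higher side had roles in metabolism, translation and signalling. Slc25a17, a carrier of the peroxisomal membrane, was higher by 0.32, Mccc1, an enzyme of leucine breakdown, by 0.26, and Cox6c, a subunit of cytochrome c oxidase, by 0.33. Rack1, a scaffold protein of the small ribosomal subunit, was higher by 0.39, and Dyrk1a, a protein kinase, by 0.43. Slc10a4, of the bile acid transporter family, Tor1aip1, of the inner nuclear membrane, and Sema3c, a secreted semaphorin, were higher by 0.25, 0.29 and 0.30.

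On the lower side the smallest p belonged to Kcnn4, the calcium-activated potassium channel of intermediate conductance that supports chloride secretion in gut epithelium. It read 8.46, 8.59, 8.42 and 8.47 in wild type and 7.92, 7.97, 8.25 and 8.16 in ATB-346, a difference of -0.41 ± 0.09 (adjusted p = 0.593 by limma). ATB-346 replicates 1 and 2, the arrays of that group with the highest Osr2, were the lowest, and without these and wild-type replicate 4 the difference was -0.29. Dok2, an adaptor protein of blood cells, read 6.84 to 7.02 in wild type and 6.37 to 6.82 in ATB-346 (-0.37 ± 0.09). 3 splicing or RNA-processing genes were on the lower side: Srrm2, a spliceosome scaffold (-0.23), Srsf3, a splicing factor (-0.23), and Tut1, which adds uridines to U6 RNA (-0.25). The others were Plin3, a lipid droplet coat protein (-0.26), Camta2, a transcription activator (-0.24), Cdc42ep1, an effector of the GTPase Cdc42 (-0.25), Commd5 (-0.31), Zfp39 (-0.29), Spsb2 (-0.28) and the target that the file names CCBP2 (-0.29).

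**Figure D2:**
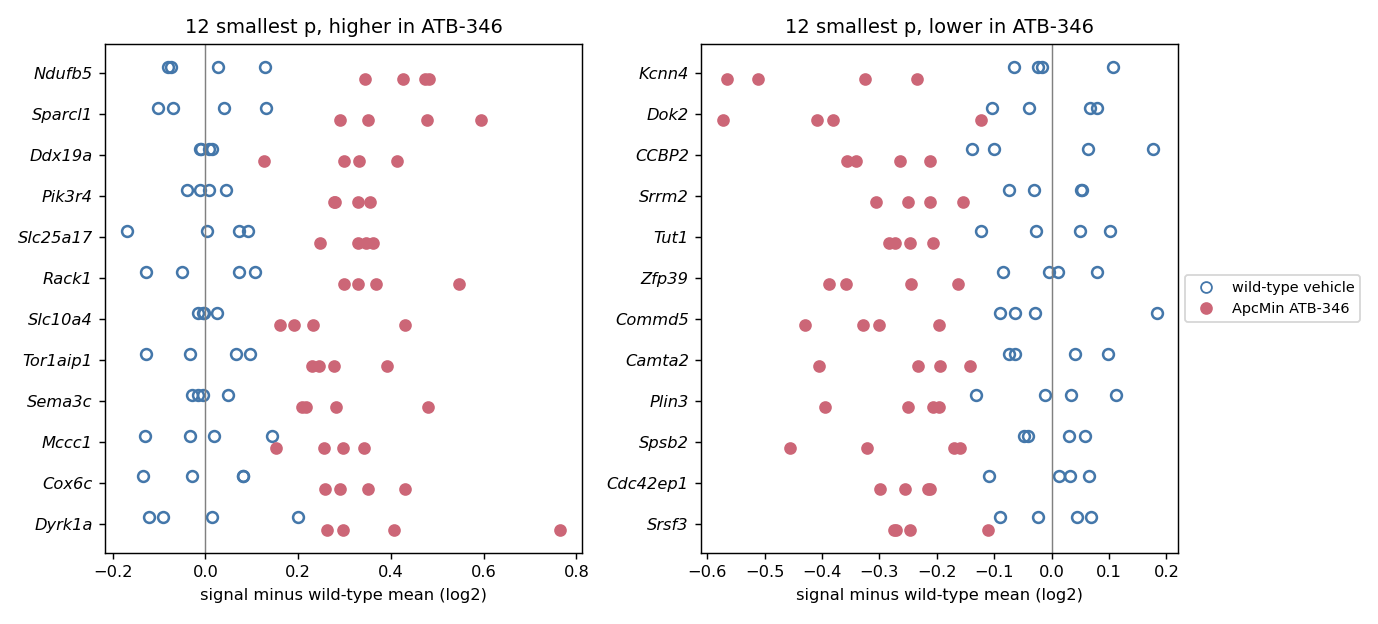
Signal of each array minus the wild-type mean (log2) for the 12 genes with the smallest p on the higher side (left) and on the lower side (right), with open blue points for the 4 wild-type arrays and filled red points for the 4 ATB-346 arrays. In all 24 genes the groups do not overlap, and the mean differences run from -0.41 to 0.43.

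Genes of oxidative phosphorylation stood mostly on the higher side, by small amounts. This pathway passes electrons from NADH and succinate through complexes I to IV and uses the proton gradient in complex V, ATP synthase, to make ATP. Of 33 genes on the list 29 were tested, and 24 were higher and 5 lower, by a median of 0.12 against 0.00 over all targets. At an unadjusted p under 0.05, 8 were higher and 0 lower, against 3.19% and 2.17% of all targets. In 6 of the 8 the groups did not overlap, against 1.68% of all targets that were higher without overlap, and 0 passed the adjusted test. The list was written with earlier results of these data known, so these counts are a description.

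The members that led the list belong to 4 of the 5 complexes. Complex I had 11 of 13 tested subunits higher, by a median of 0.09, and beside Ndufb5 they include Ndufs3 (0.22 ± 0.08) and Ndufb3 (0.18 ± 0.08). In complex II, Sdhd, the membrane anchor of succinate dehydrogenase, read 8.93, 8.94, 8.94 and 9.34 in wild type and 9.25, 9.54, 9.27 and 9.38 in ATB-346 (0.32 ± 0.09). Wild-type replicate 4 stood within the ATB-346 range and the other 3 wild-type arrays below it. In complex IV all 5 tested subunits were higher: Cox6c read 12.81 to 13.03 against 13.20 to 13.38, and Cox7a2 9.38 to 9.53 against 9.57 to 9.86, with no overlap in either. In ATP synthase, Atp5a1, which encodes the alpha subunit, read 10.00, 9.65, 9.82 and 10.14 against 10.33, 10.65, 10.36 and 10.24 (0.49 ± 0.14), and Atp5c1, the gamma subunit's gene, differed by 0.19 ± 0.07. Complex III had 2 of 3 subunits higher and none at an unadjusted p under 0.05. Ndufs3, Ndufb3, Cox7a2 and Atp5c1 were named after their values were seen.

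The summed picture by array was narrow. The mean over the 29 genes was 11.74, 11.75, 11.76 and 11.80 in wild type and 11.94, 11.92, 11.83 and 11.85 in ATB-346, so the groups did not overlap, by a narrow margin. ATB-346 replicates 1 and 2, the arrays with high Osr2, were the highest. Without ATB-346 replicate 1 the list's median was 0.08, and without the 3 arrays with the highest Osr2 it was 0.06.

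**Figure D3:**
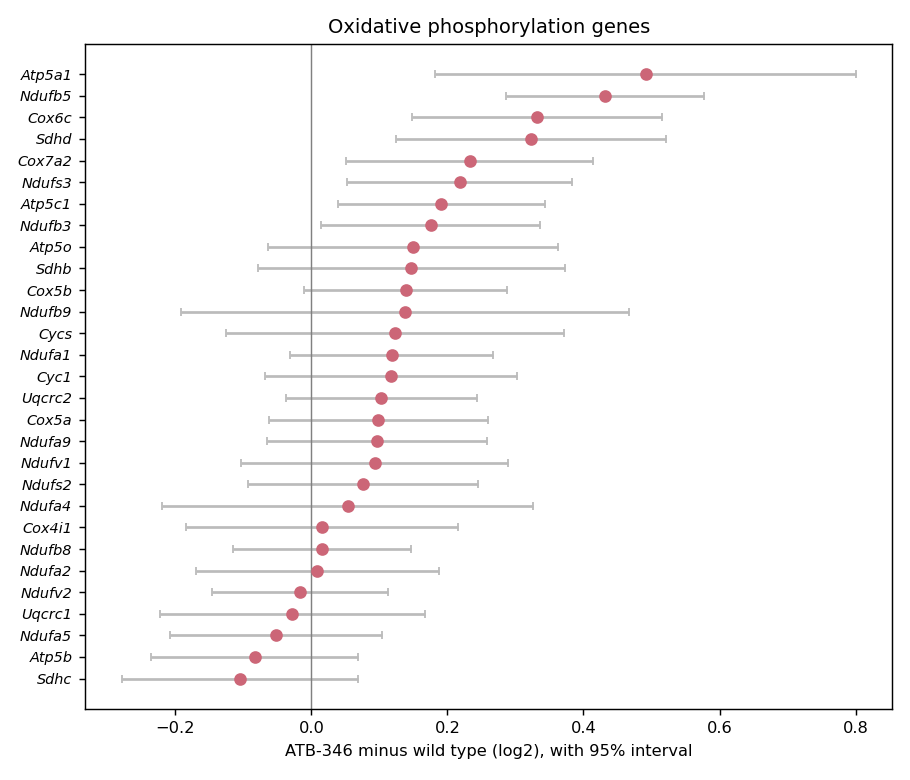
Difference between ATB-346 and wild type (log2) for the 29 tested genes of oxidative phosphorylation, as points with 95% intervals from the limma fit (n = 4 arrays a group). 24 of the 29 points lie above 0, and the intervals of 8 genes, from Ndufb3 to Atp5a1, stay above 0 before adjustment over all targets.

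The promoter of Ndufb5 is shown because it heads both the list and all tested genes. It spans 250 bases before to 50 bases after the start, at chr3:32736813-32737112 on the plus strand of GRCm38.p6, from RefSeq. Capitals mark the only match to the ETS core CGGAAG, read on both strands, letters that factors of the ETS family, such as GABP, are known to bind.
Ndufb5: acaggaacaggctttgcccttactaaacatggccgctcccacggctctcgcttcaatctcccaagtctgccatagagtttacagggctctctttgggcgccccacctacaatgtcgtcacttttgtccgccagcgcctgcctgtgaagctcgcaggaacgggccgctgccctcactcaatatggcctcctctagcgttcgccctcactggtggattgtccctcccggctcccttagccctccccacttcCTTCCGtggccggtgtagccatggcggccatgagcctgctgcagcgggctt
The core was found in the same window of 9 of the 20 list members that matched the promoter table by symbol and in 16.9% of all 32851 promoters given there. A match is a description of the letters and not of binding.

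Immediate early genes, which are transcribed within minutes of a stimulus, were on the higher side in part of the arrays. Of 20 tested members of the immediate early and heat shock list, 16 were higher and 4 lower, by a median of 0.26. At an unadjusted p under 0.05, 3 were higher, against 3.19% of all targets, and 0 were called. The mean over the list was 9.77, 9.60, 9.61 and 9.44 in wild type and 9.45, 10.17, 10.05 and 9.67 in ATB-346. Only ATB-346 replicates 2 and 3 thus stood above all wild-type arrays. The list's median ranged from 0.07 to 0.29 over the alternatives in arrays and processing. Dusp1, a phosphatase that switches off MAP kinases, read 10.46, 10.39, 10.51 and 10.43 in wild type and 10.71, 11.32, 11.05 and 10.56 in ATB-346, a difference of 0.47 ± 0.17 (adjusted p = 0.839 by limma). The groups did not overlap, as for the 1.68% of all targets that were higher without overlap. Atf3, a stress-induced transcription factor, read 7.74, 7.83, 7.34 and 7.03 against 7.60, 9.11, 8.68 and 7.58 (0.76 ± 0.31), and Klf6, a zinc finger transcription factor, differed by 0.31 ± 0.12. In each of the 3, ATB-346 replicates 2 and 3 were the highest of the 8 arrays, and ATB-346 replicates 1 and 4 of Atf3 lay within the wild-type range. Without ATB-346 replicate 2 the difference was 0.47 for Atf3, 0.20 for Klf6 and 0.33 for Dusp1. Nfkbia, the inhibitor that NF-kappaB induces against itself, read 9.26, 9.65, 9.32 and 9.53 in wild type and 9.73, 10.65, 9.80 and 9.84 in ATB-346 (0.57 ± 0.16), again highest in ATB-346 replicate 2, and 0.35 without it. The NF-kappaB and inflammation list as a whole had 6 of 15 higher and a median of -0.07.

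The promoters of Dusp1 and Atf3 are shown as 2 leading members of that list whose windows hold the core of the cyclic AMP response element, TGACGT, read on both strands and marked in capitals. They lie at chr17:26508423-26508722 and chr1:191183284-191183583, both on the minus strand of GRCm38.p6, and come from RefSeq.
Dusp1: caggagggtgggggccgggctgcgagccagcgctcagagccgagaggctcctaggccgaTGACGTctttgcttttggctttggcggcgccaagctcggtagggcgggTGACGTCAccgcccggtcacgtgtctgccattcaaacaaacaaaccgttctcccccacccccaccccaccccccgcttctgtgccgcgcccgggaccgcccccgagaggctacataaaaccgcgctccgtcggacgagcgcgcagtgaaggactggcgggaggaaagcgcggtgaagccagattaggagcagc
Atf3: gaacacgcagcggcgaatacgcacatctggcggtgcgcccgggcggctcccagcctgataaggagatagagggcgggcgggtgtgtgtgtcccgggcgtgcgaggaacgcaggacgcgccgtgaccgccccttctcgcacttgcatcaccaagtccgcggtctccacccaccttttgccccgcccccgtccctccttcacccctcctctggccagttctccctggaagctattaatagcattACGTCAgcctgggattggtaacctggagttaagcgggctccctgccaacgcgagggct
The Dusp1 window holds 3 matches, of which 2 overlap as the palindrome on both strands, and the Atf3 window holds 1. Among 18 members with a promoter listed there, 4 hold the core (22.2%), against 7.5% of all promoters. Here too members are counted per gene, over any promoter, and the share over all is per promoter.

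Apc itself and most Wnt pathway genes differed by little, and none was called. Apc read 6.67, 6.89, 6.67 and 6.58 in wild type and 6.54, 6.76, 6.81 and 6.53 in ATB-346 (-0.04 ± 0.09), a level that checks no genotype, because the Min allele differs by a point mutation. Ctnnb1, which encodes beta-catenin, read 11.04 to 11.28 against 11.20 to 11.43 (0.13 ± 0.07). Of 10 tested genes of the destruction complex and beta-catenin list 6 were higher and 4 lower, by a median of 0.07. At an unadjusted p under 0.05, 1 was higher, against 3.19% of all targets. This was Skp1, a subunit of the ubiquitin ligase that acts on beta-catenin (0.25 ± 0.09). Of 11 tested Wnt target and intestinal stem cell genes 6 were higher and 5 lower, with a median of 0.02. Axin2, a feedback target of the pathway, differed by 0.15 ± 0.10, and Ascl2, a stem cell transcription factor, by -0.21 ± 0.13. The exception was Ccnd1, which encodes cyclin D1, with 10.85, 10.40, 10.57 and 10.64 in wild type and 10.06, 10.50, 10.39 and 10.06 in ATB-346 (-0.36 ± 0.11, adjusted p = 0.728 by limma). ATB-346 replicates 1, 3 and 4 lay below all wild-type arrays, and replicate 2 lay within them. Myc read between 6.03 and 6.21 on all 8 arrays and fell under the filter on dim targets, so it was not tested. Of 23 tested genes of S phase and mitosis 18 were higher, by a median of 0.06 (51.3% of all targets were higher). That median changed sign without wild-type replicate 4 and with all 24 arrays in the fit as one set. At an unadjusted p under 0.05, 1 was higher (Stmn1, a microtubule regulator, 0.35 ± 0.15), against 3.19% of all targets.

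Prostanoid and hydrogen sulfide genes, which relate to the drug's 2 actions, differed mostly within the spread of the arrays. Ptgs1, which encodes cyclooxygenase 1, read 7.24, 6.98, 7.23 and 7.39 in wild type and 7.17, 7.60, 7.56 and 7.16 in ATB-346 (0.16 ± 0.11), and Ptgs2, which encodes cyclooxygenase 2, read 5.80 to 6.04 on all 8 arrays and was not tested. Of 14 tested genes of prostanoid synthesis, transport and receptors 6 were higher and 8 lower, with a median of -0.02 that turned above 0 with each array scaled to a common median, and 0 at an unadjusted p under 0.05. The smallest p-values there were those of Tbxa2r, the thromboxane receptor (-0.13 ± 0.07), and Hpgds, a prostaglandin D synthase (-0.26 ± 0.18).

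Hydrogen sulfide is made by Cbs, Cth and, from mercaptopyruvate, Mpst. Cbs differed by 0.07 ± 0.22 and Mpst by -0.08 ± 0.29. Cth read 7.61, 7.53, 7.81 and 7.65 in wild type and 7.93, 8.12, 7.70 and 7.74 in ATB-346 (0.22 ± 0.11, adjusted p = 0.950 by limma), and differed by 0.07 without the 3 arrays with the highest Osr2. Sqor, the mitochondrial enzyme that starts sulfide oxidation, read 10.28, 10.01, 10.21 and 10.87 against 10.90, 10.66, 10.47 and 10.50 (0.29 ± 0.16), and Cat, which encodes catalase, differed by 0.34 ± 0.18. In Sqor and Cat, ATB-346 replicate 1 was the highest of the 8 arrays and wild-type replicate 4 came next. Txnrd1, a thioredoxin reductase, was the one member without overlap (1.68% of all targets were higher without overlap). It read 6.59 to 6.71 against 6.71 to 6.81, ranges that meet after rounding (0.13 ± 0.07). In all, 8 of 11 tested members were higher and 3 lower, by a median of 0.07, and the median was -0.01 without the 3 arrays with the highest Osr2. Nrf2 targets, which include Hmox1 (heme oxygenase, 0.01 ± 0.37), had 11 of 20 higher and a median of 0.00.

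Epithelial transport genes stood on the lower side, though unevenly over arrays. Of 18 tested genes of water and electrolyte transport 2 were higher and 16 lower, by a median of -0.22. Kcnn4 was the one member at an unadjusted p under 0.05, against 2.17% of all targets lower at that threshold. The widest difference of the list was that of Atp12a, the non-gastric proton-potassium ATPase of the distal colon, with 12.44, 12.95, 12.42 and 9.83 in wild type and 6.87, 7.20, 9.37 and 12.79 in ATB-346 (-2.85 ± 1.43, 95% interval -5.90 to 0.21). The arrays of each group spread over more than the difference, and the low ones include those with high Osr2. Scnn1g, a subunit of the epithelial sodium channel, read 7.36, 7.90, 7.34 and 6.30 against 6.17, 6.21, 6.28 and 7.58, where ATB-346 replicate 4 and wild-type replicate 4 each lay in the range of the other group. The list's median was -0.13 without ATB-346 replicate 1, -0.42 without ATB-346 replicate 4 and -0.44 without wild-type replicate 4. Without the 3 arrays with the highest Osr2 it was -0.11, and Atp12a then differed by -1.52.

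Other epithelial groups were mixed. Of 4 tested gasdermin genes, which encode pore-forming proteins, Gsdmc2, Gsdmc3 and Gsdmd were lower and Gsdme was higher (0.33 ± 0.49), with a median of -0.33. Gsdmc3 read 9.92, 10.52, 10.29 and 9.43 in wild type and 9.07, 8.81, 9.31 and 10.32 in ATB-346 (-0.66 ± 0.30), and Gsdmc2 11.84, 11.59, 11.69 and 11.43 against 11.23, 10.92, 11.39 and 11.53 (-0.37 ± 0.25). In both genes ATB-346 replicate 4 lay within the wild-type range, and Gsdmc3 differed by -0.98 without it. Without the 3 arrays with the highest Osr2, Gsdmc3 differed by -0.43 and Gsdmc2 by -0.25. Tight junction genes had 3 of 18 on the higher side at an unadjusted p under 0.05, against 3.19% of all targets: Tjp1, a scaffold of the junction, read 7.38 to 7.63 against 7.71 to 7.89 without overlap, and the claudins Cldn4 and Cldn23 differed by 0.54 ± 0.20 and 0.30 ± 0.13. Over the list 10 of 18 were higher, by a median of 0.04. Without the 3 arrays with the highest Osr2, Cldn4 differed by 0.15 and Cldn23 by 0.12. Of 20 tested colonocyte genes 10 were higher and 10 lower, and of 16 goblet cell genes 6 were higher and 10 lower, with medians of 0.00 and -0.05, and the goblet cell median was 0.16 without ATB-346 replicate 1. Retnlb, a goblet cell product known to be induced by inflammation and microbes, ranged from 8.27 to 12.08 in wild type and from 8.70 to 13.69 in ATB-346 (1.42 ± 1.38). That difference was 0.56 without ATB-346 replicate 2, 0.75 without replicate 3, 2.22 without replicate 1 and 2.14 without replicate 4. It was 2.21 without wild-type replicate 1, 0.94 without wild-type replicate 4 and 0.86 without the 3 arrays with the highest Osr2.

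**Figure D4:**
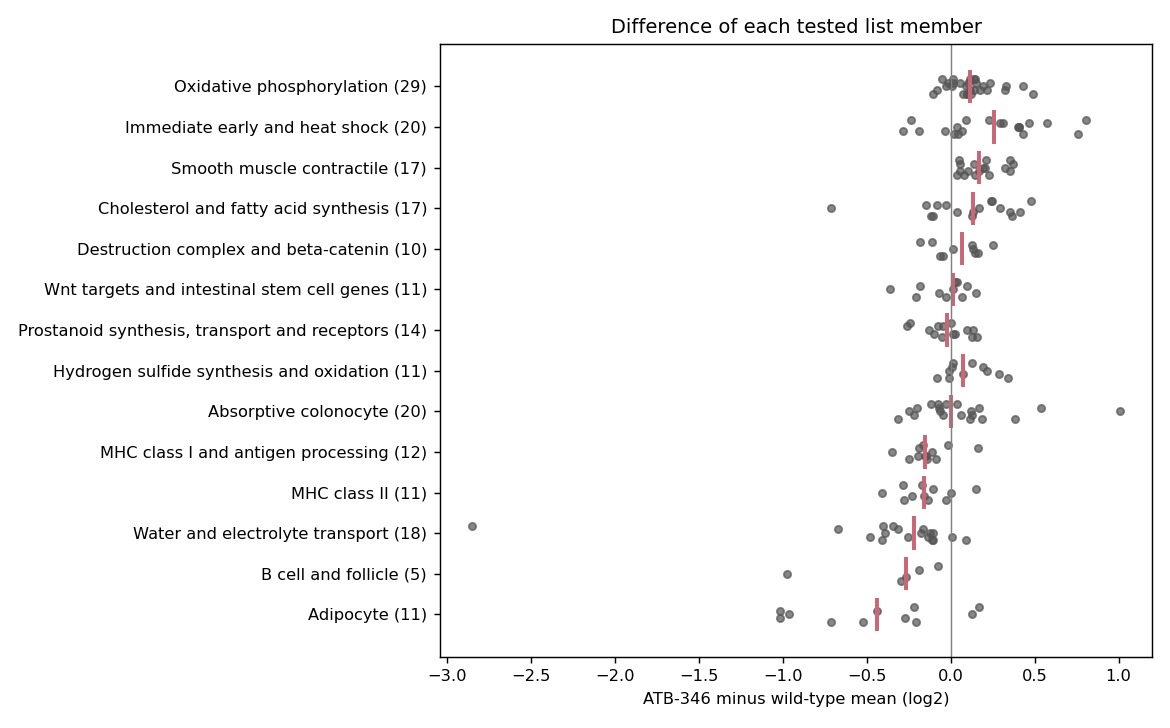
Difference between the ATB-346 and wild-type means (log2) for each tested member of 14 gene lists, as grey points, with the list's median as a red bar and the number of tested members in brackets. Medians run from -0.44 for adipocyte genes to 0.26 for immediate early and heat shock genes, and members of most lists lie on both sides of 0.

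Genes of the muscle wall were on the higher side. In whole tissue, fewer cells of a type and less RNA per cell cannot be told apart. All 17 tested smooth muscle contractile genes were higher, by a median of 0.17 (51.3% of all targets were higher). At an unadjusted p under 0.05, 2 were higher, against 3.19% of all targets. Tpm2, a tropomyosin, read 10.74 to 10.84 in wild type and 10.89, 11.34, 11.39 and 10.96 in ATB-346 (0.36 ± 0.12), and Cnn1, the smooth muscle calponin, differed by 0.37 ± 0.15. The mean over the list was 10.91, 10.67, 10.68 and 10.61 in wild type and 10.62, 11.17, 11.05 and 10.75 in ATB-346, so only ATB-346 replicates 2 and 3 stood above all wild-type arrays. Without ATB-346 replicate 2 the list's median was 0.06.

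Fat genes showed the opposite in the same 2 arrays. Adipoq, the hormone adiponectin, read 9.57, 10.36, 9.62 and 10.39 in wild type and 10.55, 7.23, 7.84 and 10.25 in ATB-346, and Cfd, the fat cell protease adipsin, read 12.29 to 13.16 against 13.12, 9.57, 10.83 and 13.19. ATB-346 replicates 2 and 3 were low and the other 2 were at the wild-type level. Of 11 tested adipocyte genes 2 were higher and 9 lower, by a median of -0.44 that ranged from -0.66 to -0.28 when single arrays were left out, and 0 were at an unadjusted p under 0.05. Pck1, the member with the smallest p, went the other way (0.13). The fat cell markers Plin1 and Fabp4 read 5.90 to 6.23 and 5.74 to 6.01 over the 8 arrays and were not tested. ATB-346 replicates 2 and 3 were thus the arrays with high smooth muscle, immediate early and Retnlb signals and with low adipocyte signals. Wild-type replicate 1 came next in the smooth muscle and immediate early means (10.91 and 9.77), above ATB-346 replicates 1 and 4. Its adipocyte mean of 9.10 was above the 8.18 and 8.25 of ATB-346 replicates 2 and 3. The part of tissue makeup in these results was not tested.

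Several immune lists had most members lower, by small differences, and others were even. Of 12 tested genes of MHC class I and antigen processing 11 were lower, by a median of -0.15 (48.7% of all targets were lower). At an unadjusted p under 0.05, 2 were lower, against 2.17% of all targets: Psmb8, an immunoproteasome subunit (-0.35 ± 0.14), and Tap2, a peptide transporter (-0.25 ± 0.11). Without wild-type replicate 4 that median was -0.07. Of 11 MHC class II genes 9 were lower, by a median of -0.16, and H2-Oa, a peptide-loading regulator, read 6.64 to 6.91 in wild type and 6.33 to 6.62 in ATB-346. The median of that list was -0.06 without ATB-346 replicate 2 and -0.04 without the 3 arrays with the highest Osr2. All 5 tested B cell and follicle genes were lower, by a median of -0.27, which was -0.14 without wild-type replicate 1, -0.15 without ATB-346 replicate 2 and -0.41 without wild-type replicate 4. The list was led by Fcmr, the IgM receptor, at 8.77, 8.29, 7.49 and 6.56 in wild type and 6.49, 6.36, 6.74 and 7.63 in ATB-346. Of 16 macrophage and monocyte genes 13 were lower, by a median of -0.11 that was -0.01 without ATB-346 replicate 2 and 0.03 without the 3 arrays with the highest Osr2. Aif1, a macrophage actin-binding protein, read 7.46 to 7.63 against 7.26 to 7.44 with no overlap, as for the 1.01% of all targets that were lower without overlap. T and NK cell genes had 6 of 10 higher, with a median of 0.02, and plasma cell and IgA transport genes 4 of 9 higher, with a median of -0.02. Mzb1, a plasma cell chaperone, differed by 0.59 ± 0.42. Of the defining macrophage markers, Csf1r and Adgre1 were higher by 0.12 and 0.11, and C1qa differed by -0.09. Of the B cell markers, Cd79b differed by -0.29, and Ms4a1, which was not tested, was between 5.88 and 6.27 on all 8 arrays.

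Pancreatic enzyme genes were near the floor in both groups. Pnlip, pancreatic lipase, read 6.46, 6.66, 6.25 and 5.87 in wild type and 6.11, 5.93, 5.99 and 5.80 in ATB-346 (-0.35 ± 1.25). That SE is wider than these 8 values show, since the fit shares its spread with the other ApcMin arrays. Of 25 tested genes on the acinar list, 19 stayed between 5.71 and 7.66 on all 8 arrays, and the median difference of the 25 was -0.06. The other 6 (Cela1, Clps, Klk1, Spink1, Sycn and Zg16) read above 9 on all 8 arrays, wild type included. In the vehicle-treated ApcMin arrays that serve in the next comparison, Pnlip read 5.82, 13.22, 11.83 and 8.84. The mean of the 19 genes was 6.12 to 6.50 on wild-type arrays and 6.12 to 6.24 on ATB-346 arrays, under the filter level of 6.54, and reached 11.7 on a vehicle array. A gene that passed the filter only through arrays where it is high had to be lower elsewhere, so no median of this list is given against ApcMin vehicle.

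The comparison was set beside its parts, ATB-346 against vehicle-treated ApcMin colon and vehicle-treated ApcMin against wild-type colon, with replicates 1 to 4 of each. Against ApcMin vehicle, 14 targets were called higher (0.155%) and 2 lower (0.0221%) at a limma adjusted p under 0.05. With the 8 arrays of these groups alone, and with all 24 arrays as one set, 0 were called in either direction, with smallest adjusted p-values of 0.137 and 0.135 in limma. Between vehicle-treated ApcMin and wild type 0 (0%) were called in either direction. At an unadjusted p under 0.05, 591 targets were higher (6.53%) and 413 lower (4.56%) against ApcMin vehicle, 11.1% together. At the same threshold 198 were higher (2.19%) and 213 lower (2.35%) in vehicle-treated ApcMin against wild type, 4.54% together. Sparcl1 was 0.73 ± 0.08 above ApcMin vehicle (adjusted p = 0.00206 by limma), 0.43 ± 0.08 above wild type, and in vehicle-treated ApcMin 0.30 below wild type. Ndufb5 was 0.58 above ApcMin vehicle and 0.43 above wild type, and Idh2, a mitochondrial isocitrate dehydrogenase, 0.59 above ApcMin vehicle and 0.30 ± 0.08 above wild type. Ddx19a was 0.42 and 0.29 above the 2 groups, and Mccc1 0.43 and 0.26. The called genes on the lower side, named after their values were seen, were Fcer1g, the common chain of Fc receptors (-0.49 against ApcMin vehicle and -0.12 ± 0.08 against wild type), and Rac2, a GTPase of blood cells (-0.64 and -0.09 ± 0.12). These comparisons share the ATB-346 arrays, and the genes were chosen on the first of them, so the values are set side by side with no test of their likeness.

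**Figure D5:**
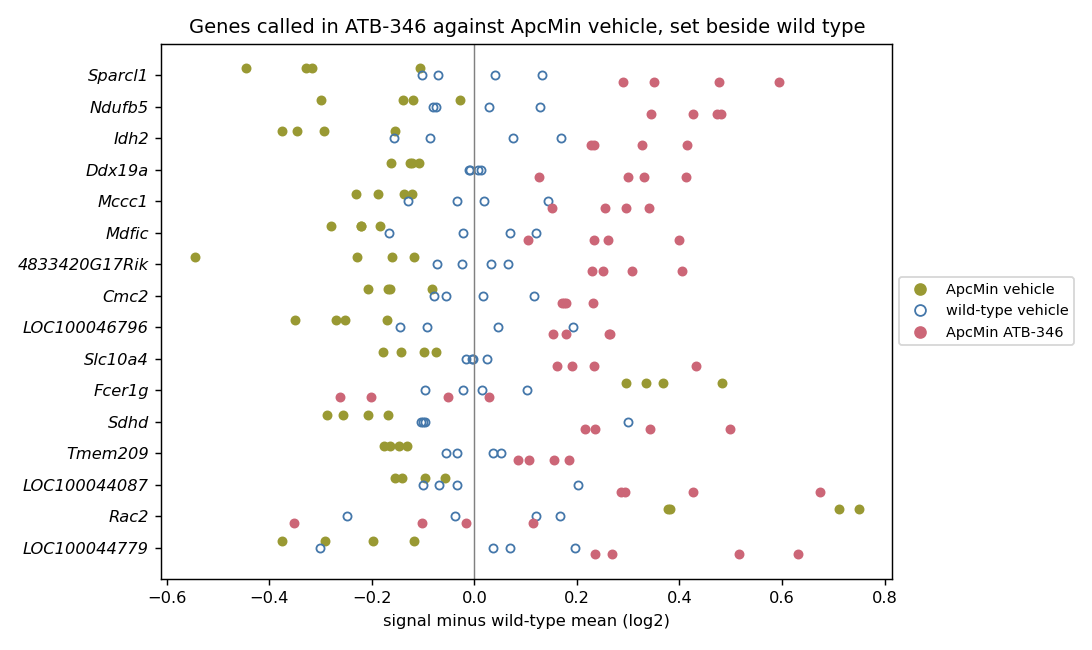
Signal of each array minus the wild-type mean (log2) for the 16 targets called between ATB-346 and ApcMin vehicle, with 4 arrays a group: olive for ApcMin vehicle, open blue for wild-type vehicle and red for ApcMin ATB-346. For Sparcl1 the vehicle arrays lie from 7.03 to 7.37, the wild-type arrays from 7.37 to 7.61 and the ATB-346 arrays from 7.77 to 8.07 on the log2 scale.

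ATB-346 replicates 5 and 6 give a second reading against ApcMin vehicle replicates 5 to 8. These arrays were outside the fit but were normalized with the others. Whether they stem from other animals is not in the labels. For the 16 called targets the sign was the same in 11, with Ndufb5 at 0.25, Mccc1 at 0.24, Idh2 at 0.08, Ddx19a at -0.02 and Sparcl1 at -0.11. Over all tested targets 53.4% were above 0 and 46.6% below in that reading. With 2 ATB-346 arrays no test was made there. Of the 24 genes that led against wild type, 9 of the 12 on the higher side and 9 of the 12 on the lower side had the same sign in this reading. All tested targets gave the 53.4% above 0 and 46.6% below named before. The reading is against ApcMin vehicle, while these genes were chosen against wild type.

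Naproxen at 10 mg/kg was the nearest treatment, and the doses of the 2 drugs differ. The direct test of ATB-346 against naproxen in ApcMin, at replicates 1 to 4, called 0 of 9048 targets (0%) in either direction, with a smallest limma adjusted p of 0.110 and with 372 higher (4.11%) and 164 lower (1.81%) at an unadjusted p under 0.05, 5.92% together. Ndufb5 read 9.45 to 9.54 in naproxen arrays and was 0.42 higher in ATB-346 arrays (95% interval 0.28 to 0.57), while Kcnn4 read 7.96 to 8.13 in naproxen arrays and differed by 0.03 (-0.16 to 0.22). For oxidative phosphorylation the median was -0.03 between the drugs, and Osr2 read 10.64 to 12.81 on the 4 naproxen arrays.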

How the data were processed

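Colon RNA was measured on single-colour Illumina bead arrays. The deposited values are 1 intensity per target and array, which per the file headers GenomeStudio 1.7.0 exported with no normalization. They range from 41.6 to 36652.2, and no source used here says whether background had been subtracted. The intensities of all 24 arrays were corrected with normexp (offset 50), quantile-normalized and put on the log2 scale in limma 3.58.1 (R 4.3.3). Of 18097 targets, 14096 matched a current symbol, 3025 matched a synonym, and 976 went by the name in the file. Targets with a mean above the median (6.54) were tested, 9048 in all. limma was fitted to group means of 16 arrays, replicates 1 to 4 of the 4 groups, which share 1 estimate of the spread, with Benjamini-Hochberg adjustment over all tested targets and a threshold of 0.05. The fit was tested on simulated data.

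No source used here gives chip or scan batches. Genes named are the 12 on each side with the largest change among those called, filled up by smallest p, the 4 or fewer tested members of each described list that had the smallest p, a fixed set of pathway genes, and up to 5 genes per direct test whose call differs between the comparisons. Unnamed and predicted genes were left out of that choice. Other genes named for their values are so described. A few genes that the choice would name are not reported here. The members and the 45 gene lists were chosen with earlier results of these data known. Alternatives covered the arrays in the fit, a replicate block, background correction, scaling, the filter, the variance model, array weights, the value table of the series and single arrays left out. The 3 alternatives built on Osr2 were added after seeing the data.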

Additional observations from a re-analysis of the deposited data

Results flagged for a closer look

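In 33 of 476 groups of 4 arrays (195 genes and 43 list means in each group) 1 array stood far from the other 3 by Dixon's criterion, the gap to the nearest array over the group's whole range. Chance alone gives about 5% of groups. Of the 33 cases, 17 were in wild-type replicate 4, one of the arrays with high Osr2.

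Wild-type replicate 4 was high in Osr2 (13.01, others 6.61 to 7.24), Hoxb5 (10.47, others 8.73 to 8.84), the glutathione transferase Gsta1 (10.49, others 9.09 to 9.12), the peptide hormone somatostatin, Sst (11.31, others 9.24 to 9.53), and Scg5, a secretory granule protein (8.59, others 8.20 to 8.24). It was also high in Sdhd (9.34, others 8.93 to 8.94) and in Pdk4, a kinase that restrains pyruvate oxidation (8.33, others 7.01 to 7.09). It was low in Atp12a (9.83, others 12.42 to 12.95), in Spink1, a trypsin inhibitor (12.48, others 14.26 to 14.43), in Cdx1 (10.96, others 11.18 to 11.22) and in Hoxa2 (6.82, others 7.20 to 7.26).

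List means placed the same array high too. It read 8.49 for Hox genes (others 7.32 to 7.47), 9.44 for hydrogen sulfide genes (others 9.12 to 9.17), and 10.16 for Nrf2 targets (others 9.84 to 9.89). It read 10.14 for PPAR targets (others 9.49 to 9.53), 9.94 for cytochrome P450 and xenobiotic genes (others 9.01 to 9.04), and 7.57 for T and NK cell genes (others 7.09 to 7.16). In the ATB-346 group the T and NK cell mean was high in replicate 1 (7.45, others 7.14 to 7.17).

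Wild-type replicate 2 was high in Tap2 (9.17), Cx3cr1 (8.38), the endothelial claudin Cldn5 (8.46) and Flcn (9.13). ATB-346 replicate 4 was high in Hpgds (7.74), Scnn1g (7.58), Gp2 (6.59) and the folate transporter Slc46a1 (9.72), and low in Dmbt1 (13.39) and in the enteric neuron mean (8.30, others 8.61 to 8.64). ATB-346 replicate 3 was high in the endothelial receptor Flt1 (8.79) and low in Ankrd37 (7.99). ATB-346 replicate 2 was high in Nfkbia (10.65) and Stmn1 (7.99), and replicate 1 was low in Pck1 (6.39).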

How the results depend on the processing

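ATB-346 against wild type called 0 genes higher and 0 lower in limma under each of 23 alternatives, with the smallest adjusted p between 0.0725 (filter at the 75th percentile) and 0.9999 (without the 3 arrays with the highest Osr2). With each array scaled to a common median, 230 targets were higher and 45 lower at an unadjusted p under 0.05, against 289 and 196. None of the 24 leading genes changed sign under the alternatives in which it was tested. Their groups do not overlap, so leaving out or weighting arrays could not change a sign, and this is no measure of stability. Of 1033 list medians, 134 changed sign. ApcMin vehicle against wild type and ATB-346 against naproxen stayed at 0 calls.

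Same-numbered arrays of the 2 groups did not deviate together (r = -0.485, -0.445, 0.281 and -0.633), so the numbers are not taken to pair them. With the replicate number as a block, ATB-346 against wild type called 0 genes higher and 0 lower, and ATB-346 against ApcMin vehicle called 8 higher and 1 lower in place of 14 and 2.

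The calls of ATB-346 against ApcMin vehicle moved more. They were 0 higher and 0 lower in the 8 arrays alone and in all 24 arrays as one set, 17 and 11 in all 24 arrays with replicate numbers 5 to 8 against 1 to 4 as a term (a split that no label calls a batch), 2 and 0 with median scaling, and 5 and 1 with the filter at the 75th percentile. Those on the lower side were 1 with cyclic loess and with no filter, and 4 with array weights and with the series' value table. Leaving out single arrays gave 3 to 16 higher, the fewest without vehicle replicate 3, and 0 to 7 lower, the most without vehicle replicate 4. The cause was not tested. The number of arrays limits the precision throughout.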

Other observations

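Of 43 lists with at least 4 tested genes, 29 had a median between -0.1 and 0.1, 6 stood above and 8 below. Among those not described above, cholesterol and fatty acid synthesis had 11 of 17 genes higher, by a median of 0.13 that was 0.01 without wild-type replicate 4. Idi1, an isomerase of isoprenoid synthesis, read 6.61 to 6.83 in wild type and 6.73, 7.08, 7.49 and 6.95 in ATB-346 (0.35 ± 0.15). PPAR target and fatty acid oxidation genes had 13 of 17 higher, by a median of 0.11 that was 0.00 without ATB-346 replicate 1. Enteric neuron and glia genes had 7 of 8 higher, by a median of 0.10, led by Stmn2, a neuronal microtubule regulator (0.26 ± 0.11).

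Reg family and antimicrobial genes had 5 of 11 higher and a median of -0.13, which was 0.19 without wild-type replicate 4, 0.09 without ATB-346 replicate 4 and 0.01 without ATB-346 replicate 2.

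Other lists had medians near 0 with single members that differed more. Circadian clock genes had 5 of 13 higher, and Per2, a clock repressor, read 8.29 to 9.40 in wild type and 8.03 to 8.63 in ATB-346 (-0.53 ± 0.26). Atf4, a transcription factor of the stress response, was higher by 0.25 ± 0.10 in a list with 8 of 17 higher. Ankrd37, a hypoxia-induced gene, read 8.10 to 8.49 against 9.01, 9.10, 7.99 and 9.21 (0.59 ± 0.22), with 3 ATB-346 arrays above all wild-type arrays and 1 below them. Flcn and its partner Fnip1, which act in nutrient signalling at the lysosome, were higher by 0.20 ± 0.09 and 0.19 ± 0.09 in a list with 9 of 19 higher. Ribosomal protein genes had 16 of 19 lower, by a median of only -0.04.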
